A study of Mus musculus with 6 samples.

Results

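The genes described here are 10 brakes on mitogen-activated protein kinase (MAPK) signalling in the mouse hippocampus: the dual-specificity phosphatase genes Dusp1, Dusp2, Dusp4, Dusp5, Dusp6, Dusp10 and Dusp14, and Spry2, Spry4 and Spred1 of the Sprouty and Spred families. They were the rows of the deposited gene table with these names, 10 of 41386 genes, and each name was on a single row. RNA-seq gene counts came from 3 sham libraries and 3 libraries made after ischemia/reperfusion (I/R). In the I/R group the left middle cerebral artery of 56-day-old wild-type C57BL/6 mice (male C57BL/6J in the study's methods) was blocked with a filament for 1.5 h and reperfused for 24 h before the hippocampus of that side was taken; sham mice had the surgery without the filament. By the study's methods hippocampi of several mice were pooled for a replicate, so the spread given below is between pools of animals. Both groups had isoflurane anesthesia. The middle cerebral artery is the model's target, and how much of each hippocampus lost its blood flow was not read from these files.

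MAPK cascades pass signals from receptors through RAS, RAF and a pair of kinase layers to the kinases ERK, JNK and p38, which are switched on by phosphorylation of a threonine and a tyrosine. Dual-specificity phosphatases remove both phosphates, and many of their genes are themselves switched on by the cascade they shut off, which makes them negative feedback genes. Sprouty and Spred proteins act higher up, between receptor tyrosine kinases and RAF. In the brain several of these genes are early-response genes of active or injured neurons and glia, and some are also used by immune cells.

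Of the 10 genes, 7 were higher after I/R and 0 were lower by edgeR (0 lower also at an unadjusted p under 0.05 and by DESeq2). The largest rise was that of Dusp10, at 3.12-fold, followed by Dusp1 at 2.26-fold, Spry2 at 2.20-fold and Dusp2 at 2.19-fold. Spry4 rose 1.72-fold, Spred1 1.47-fold and Dusp6 1.203-fold, while Dusp4, Dusp5 and Dusp14 did not pass the test. A gene was called when edgeR's quasi-likelihood test gave a Benjamini-Hochberg adjusted p below 0.05 together with a change of more than 1.2-fold. By this rule 21.8% of the 18569 genes tested were called higher, 19.9% lower and 41.8% in either direction. Of the 7, Dusp1, Dusp2, Dusp10 and Spry2 passed with a fold change over 2, 4 of 10 members against 10.2% of all genes tested. All 10 members passed the filter on low counts. In 7 members the lowest I/R library exceeded the highest sham library, as in 29.3% of all genes tested. The median log2 fold change was 0.67 over the members and 0.03 over all genes tested.

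Total counts were 37493042 to 44788547 per library, a depth that gave each member at least 25 counts in every library. Sham libraries had markers of dentate granule cells and CA1 pyramidal cells, at summed levels of 528 to 573 and 833 to 894 CPM (counts-per-million, on library sizes scaled by the TMM method). After I/R these were 139 to 280 and 237 to 429 CPM, and all 7 and all 5 markers were called lower. The 7 monocyte and macrophage markers summed to 143 to 299 CPM in I/R and 13.4 to 15.7 CPM in sham, and 6 were called higher. The 7 endothelial markers summed to 489 to 750 and 333 to 360 CPM, with 6 called higher. The 6 astrocyte markers summed to 2008 to 2743 CPM in I/R and 3939 to 4255 CPM in sham, with 2 called higher and 3 lower. The 7 homeostatic microglia markers summed to 252 to 342 and 251 to 284 CPM, with 2 called higher and 3 lower. Of 7 oligodendrocyte markers 3 were called lower (0 to 4 over the alternatives), and of 5 oligodendrocyte precursor markers 3 (2 to 3). Of 7 neutrophil markers 5 were tested and 3 called higher (0 to 4 over the alternatives), with Ly6g and Cxcr2 at 0 in all sham libraries. When at least 10 counts were required in every library, 2 neutrophil markers were tested and 0 called higher. A gene at 0 in sham cannot pass that filter, so the neutrophil calls rested on genes with few or no sham counts. The part of these cell types in the changes below was not tested, and in bulk RNA fewer cells of a type and less RNA per cell cannot be told apart. The 7 choroid plexus markers did not follow the groups: they summed to 33.9 to 3617 CPM in I/R and 36.7 to 4435 CPM in sham, with I/R replicate 3 and sham replicate 1 low.

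The regions in front of the genes were searched for exact matches to some classical signal-responsive elements. RefSeq promoters (GRCm38.p6, from 250 bases before to 50 after the start) were given for 8 members, all but Dusp4 and Spry4. Each was searched on both strands for the cyclic AMP response element (CRE, TGACGTCA), its half-site TGACG, which also lies inside the full element, the AP-1 site TGANTCA, the ETS core CCGGAA and the CArG box, which binds serum response factor. The full CRE was in Dusp1 alone among the 8 and in 1.79% of 32851 promoters, and the CArG box in Dusp5 alone and in 1.63%. The half-site was in 3 of the 8 (Dusp1, Dusp2 and Dusp5) and in 20.8% of promoters, the ETS core in 2 (Dusp14 and Spry2) and in 14.9%, and the AP-1 site in 0 and in 7.81%. The 250 bases before the start are shown for Dusp1 and Dusp5, whose elements were the rarest of those searched, and for Dusp10, the gene with the largest rise, in which 0 of the 5 elements were found. Capitals mark the elements.
Dusp1 (chr17:26508473-26508722, minus strand): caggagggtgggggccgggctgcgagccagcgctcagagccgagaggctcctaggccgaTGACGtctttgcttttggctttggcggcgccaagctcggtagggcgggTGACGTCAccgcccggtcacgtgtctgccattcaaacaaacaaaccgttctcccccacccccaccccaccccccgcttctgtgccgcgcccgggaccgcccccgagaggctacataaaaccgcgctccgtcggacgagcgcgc
Dusp5 (chr19:53528895-53529144, plus strand): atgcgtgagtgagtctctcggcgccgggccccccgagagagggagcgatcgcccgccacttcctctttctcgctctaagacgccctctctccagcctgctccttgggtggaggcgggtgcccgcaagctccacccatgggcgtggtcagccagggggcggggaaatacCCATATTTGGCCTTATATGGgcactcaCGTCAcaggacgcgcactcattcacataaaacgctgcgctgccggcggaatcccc
Dusp10 (chr1:184034131-184034380, plus strand): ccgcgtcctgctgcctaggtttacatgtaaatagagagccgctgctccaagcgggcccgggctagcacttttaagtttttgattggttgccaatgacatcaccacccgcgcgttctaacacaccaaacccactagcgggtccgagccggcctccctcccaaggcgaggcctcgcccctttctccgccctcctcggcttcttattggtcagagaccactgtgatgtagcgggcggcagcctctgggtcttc
In Dusp1 the CRE spanned bases -143 to -136 from the start, with another half-site at -191 to -187. In Dusp5 a pair of CArG boxes lay side by side, at -82 to -73 and -72 to -63, with a half-site on the other strand at -55 to -51. These matches are letters in a window and were not tested for binding. Sites outside the window or with other letters were not searched. For Spred1 the bases after the start were not found in its transcript.

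The first question was how the inducible nuclear phosphatases Dusp1, Dusp2, Dusp4 and Dusp5 responded. Dusp1, an early-response gene whose product prefers p38 and JNK, lies on chromosome 17 from 25130989 to 25133918 (BALB/cJ assembly, the coordinates of the deposited table; minus strand). Its level was 83.2, 56.8 and 48.7 CPM in I/R replicates 1, 2 and 3 and 25.0, 27.4 and 31.2 CPM in sham replicates 1, 2 and 3. Every I/R library was above every sham library, and I/R replicate 1 was the highest. The means were 62.9 ± 18.03 and 27.9 ± 3.10 CPM (SD, n = 3 each). The edgeR estimate of the log2 fold change, with its standard error (SE), was 1.18 ± 0.20 (adjusted p = 0.00292). It came to 0.92 with I/R replicate 1 left out. This is the gene with the full CRE printed above.

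Dusp2, a phosphatase best known from activated lymphocytes and myeloid cells, was the least abundant member per length. It had 97, 44 and 71 counts after I/R against 35, 27 and 25 in sham, which is 2.13, 1.10 and 1.77 CPM against 0.896, 0.664 and 0.726 CPM. The groups did not overlap, but I/R replicate 2 stood only a little above the highest sham library. The edgeR estimate was 1.13 ± 0.34 (log2, SE; adjusted p = 0.0302). The call rested on most libraries being present: the edgeR adjusted p was 0.0580 to 0.0997 without I/R replicate 1 or 3 or without sham replicate 1, 2 or 3, and 0.113 in the 4 libraries with high choroid plexus levels (0.0141 to 0.113 over all alternatives). The 6 T cell markers, of which Cd8a was at 0 in all sham libraries, summed to 3.47 to 4.17 CPM in I/R and 0.959 to 2.28 CPM in sham. At these low levels only 1 of the 6 passed the filter on low counts, and it was called higher. Over the alternatives the number of T cell markers called higher was 0 to 1. The part of T cells in the change of Dusp2 was not tested.

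Dusp4, a nuclear phosphatase of ERK and JNK, had 41.8, 35 and 32.2 CPM after I/R against 31.8, 31.3 and 34.0 CPM in sham. The groups overlapped, since I/R replicate 3 lay below sham replicate 3. The edgeR estimate was 0.17 ± 0.12 (log2, SE; adjusted p = 0.283). Dusp5, a nuclear phosphatase that acts on ERK alone, had 31.2, 45.2 and 28.2 CPM after I/R against 22.1, 28.1 and 28.4 CPM in sham. I/R replicate 2 was high, and I/R replicate 3 was level with the upper 2 sham libraries. The edgeR estimate was 0.41 ± 0.19 (log2, SE; adjusted p = 0.117). Without I/R replicate 1 Dusp4 was at 0.05, and without I/R replicate 2 Dusp5 was at 0.16. Scaling moved both calls. Under scaling by library size only, where the median of all genes was 0.28, Dusp4 was at 0.43 (edgeR adjusted p = 0.0354) and Dusp5 at 0.66 (0.0201), and their adjusted p ranged over the alternatives from 0.0354 to 0.682 and from 0.0201 to 0.422. So within this class Dusp1 and Dusp2 passed, and Dusp4 and Dusp5 did not.

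**Figure D1:**
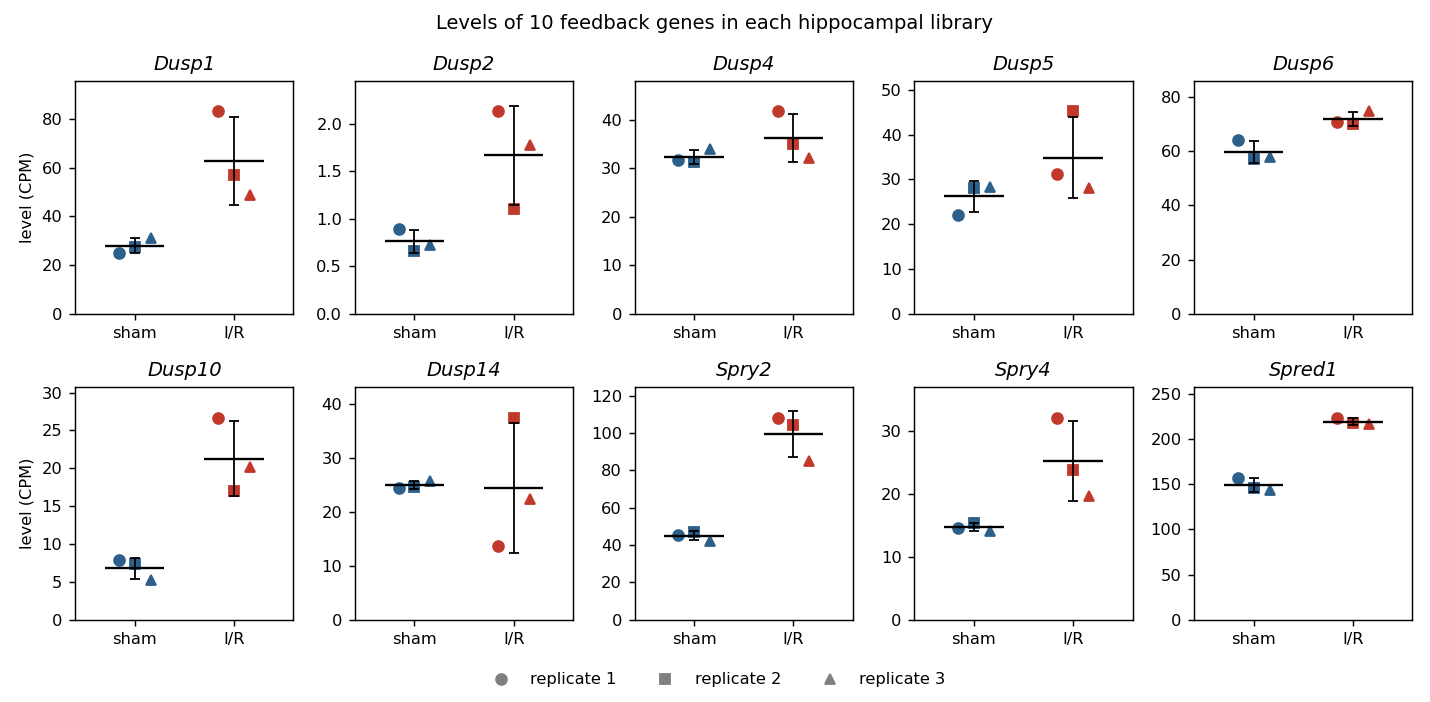
Level of each member in CPM (vertical axes from 0) in sham (blue) and I/R (red) libraries, with the replicate number as the symbol, the mean as a bar and the SD as an error bar. In Dusp1, Dusp2, Dusp6, Dusp10, Spry2, Spry4 and Spred1 the groups did not overlap, while in Dusp14 the I/R libraries spread from 13.7 to 37.5 CPM around the sham libraries.

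Dusp6 encodes the cytoplasmic phosphatase of ERK and is a standard readout of ERK activity. Its level was 70.7, 70.3 and 74.8 CPM after I/R against 64.4, 57.1 and 57.9 CPM in sham. All I/R libraries were higher, by a small step, and the edgeR estimate was 0.27 ± 0.08 (log2, SE; adjusted p = 0.0336), just past the fold change rule. It was the least stable of the calls, kept in 8 of 18 alternative fits, with an adjusted p of 0.00244 to 0.143. Its log2 fold change was 0.52 with library size only and 0.26 with DESeq2 size factors, the latter under the fold change rule, and without I/R replicate 2 or 3 or sham replicate 2 or 3 its edgeR adjusted p was 0.0886 to 0.143.

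Dusp10, whose product acts on JNK and p38 and not on ERK, lies on chromosome 1 from 183501130 to 183566862 (BALB/cJ assembly, plus strand). It had 26.7, 17.0 and 20.1 CPM after I/R against 7.88, 7.33 and 5.20 CPM in sham. The lowest I/R library was above the highest sham library by more than the range of the sham libraries. The means were 21.3 ± 4.96 and 6.80 ± 1.42 CPM (SD, n = 3 each), and the edgeR estimate was 1.64 ± 0.22 (log2, SE; adjusted p = 0.00129), at the 93.8th percentile of all genes tested. Without I/R replicate 1 it was 1.44. A gene on the opposite strand, 1700056E22Rik, lies within Dusp10 and had 69 counts over the 6 libraries. The 3 genes with the profile closest to Dusp10 over the 6 libraries were Mirg, Apbb1ip and Lmcd1, with root mean square differences of 0.10, 0.11 and 0.11 on the log2 scale among 14056 named genes of at least 1 CPM.

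Dusp14 encodes a small atypical phosphatase without the kinase-docking domain of the others. It was the member with no common response: I/R replicates 1, 2 and 3 had 13.7, 37.5 and 22.3 CPM, below, above and below the sham libraries at 24.4, 24.5 and 25.8 CPM. The I/R libraries thus differed among themselves by 12.04 CPM (SD, n = 3), against 0.752 CPM in sham. The edgeR estimate was -0.03 ± 0.31 (log2, SE; adjusted p = 0.957), and its sign depended on the libraries and the scaling, at 0.26 without I/R replicate 1, -0.49 without I/R replicate 2 and 0.21 with library size only. Of the 50-base stretches of its GENCODE M21 transcripts, 1.32% were shared with the locus Gm18555, and 0% of those of the other members were shared with another gene. The genes with the closest profiles were Fam210b, Slc6a20a and D930019O06Rik, at root mean square differences of 0.04, 0.14 and 0.15 on the log2 scale.

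Sprouty proteins are induced by growth factors and damp RAS-ERK signalling from receptor tyrosine kinases. Spry2 had 108, 104 and 85.2 CPM after I/R against 45.6, 47.1 and 42.4 CPM in sham. The groups were far apart for their spread, with means of 99.3 ± 12.3 and 45.04 ± 2.40 CPM (SD, n = 3 each), and the edgeR estimate was 1.14 ± 0.11 (log2, SE; adjusted p = 0.000467). Spry4, its close relative on chromosome 18, had 32.2, 23.8 and 19.7 CPM after I/R against 14.6, 15.4 and 14.1 CPM in sham. I/R replicate 1 was again the highest, and all I/R libraries were above sham. The edgeR estimate was 0.78 ± 0.18 (log2, SE; adjusted p = 0.00976), and 0.56 without I/R replicate 1. The short opposite-strand genes Gm27369 and Gm27804 lie within Spry4 and had 2 and 0 counts.

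Spred1 encodes a membrane protein that brings the RAS inhibitor neurofibromin to RAS. It had the highest deposited FPKM of the members, and its level was 224, 218 and 217 CPM after I/R against 157, 146 and 144 CPM in sham. The 3 I/R libraries were close together and all above sham, at 219 ± 4.0 against 149 ± 7.23 CPM (SD, n = 3 each), and the edgeR estimate was 0.56 ± 0.08 (log2, SE; adjusted p = 0.00203). Across the members I/R replicate 1 was the highest I/R library in 7 of 10, as in 41.8% of all genes tested and 73.1% of those called higher.

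Dusp1, Dusp10, Spry2, Spry4 and Spred1 were called in all 18 alternative fits. Exact two-sided permutation tests of CPM gave p = 0.1 for each of the 7 members that did not overlap, the smallest p that 3 against 3 libraries allow.

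**Figure D2:**
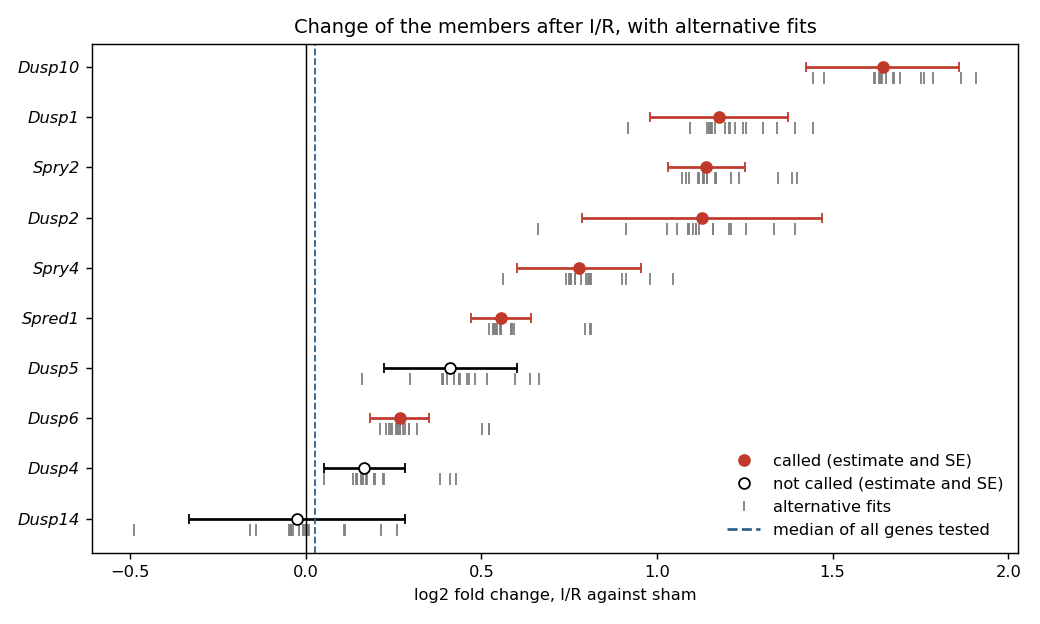
Log2 fold change of I/R against sham for each member (circles, with 1 SE), filled where called, with the values of 18 alternative fits as grey ticks and the median of all genes tested as a dashed line. Dusp10 is farthest to the right at 1.64, and Dusp14 at -0.03 has fits on both sides of 0.

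Ratios of 2 members within a library do not depend on the scaling, and 5 pairs were compared. The log2 ratio of Spry4 to Spry2 was -1.999 ± 0.22 in I/R and -1.61 ± 0.03 in sham (SD, n = 3 each), a difference of -0.38. The ratio of Spred1 to Spry2 differed by -0.58 and that of Dusp4 to Dusp2 by -0.93, and in these 3 pairs the groups did not overlap (exact permutation p = 0.1, adjusted over 5 pairs 0.167). For Dusp1 to Dusp10 the difference was -0.50 with overlapping groups (exact permutation p = 0.2, adjusted 0.25), and it was -0.23 without sham replicate 3. For Dusp5 to Dusp6 it was 0.12 (exact permutation p = 0.8), and it was -0.10 without I/R replicate 2 and -0.05 without sham replicate 1.

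Levels of different genes were compared per length, as FPKM of the deposited table. In sham the order was Spred1 at 36.7 ± 1.93 FPKM, Spry2 at 19.9 ± 0.974, Dusp6 at 19.6 ± 1.41, Dusp14 at 18.2 ± 0.597, Dusp1 at 14.9 ± 1.66, Dusp4 at 10.8 ± 0.538, Dusp5 at 9.70 ± 1.27, Dusp10 at 3.54 ± 0.737, Spry4 at 2.94 ± 0.111 and Dusp2 at 0.588 ± 0.0963 FPKM (SD, n = 3 each). The libraries of neighbours in this order overlapped for Spry2 and Dusp6, Dusp6 and Dusp14, Dusp4 and Dusp5, and Dusp10 and Spry4. In I/R the first 4 were Spred1 at 64.3 ± 4.18, Spry2 at 52.4 ± 8.29, Dusp1 at 40.5 ± 13.6 and Dusp6 at 28.1 ± 1.199 FPKM (SD, n = 3 each). The I/R libraries of Dusp1 overlapped those of Spry2 and Dusp14 and not those of Dusp6. The length behind the FPKM was not that of the table's length column for Spred1, Dusp1, Dusp2, Dusp10 and Dusp14, and the order depended on it. With that column Spry4 came before Dusp10 in sham, and in I/R the mean of Spry2, 52.4, was above that of Spred1, 39.9, and Dusp1 at 29.99 was close to Dusp6 at 28.1.

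**Figure D3:**
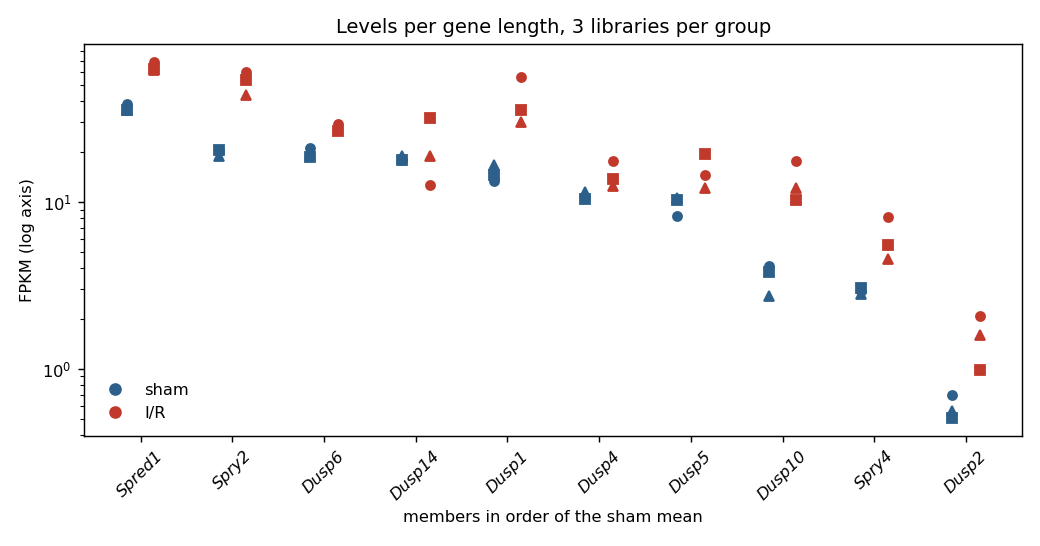
FPKM (log axis) of each member in the 3 sham (blue) and 3 I/R (red) libraries, with members in the order of their sham mean and the replicate number as the symbol (circle 1, square 2, triangle 3). Spred1 is at the top in both groups, Dusp2 at the bottom, and Dusp1 in I/R stands between 30.2 and 55.9 FPKM.

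Other genes of the pathways were taken from 12 lists of 125 genes, of which 117 were tested. Of these 44 were called higher (37.6%) and 33 lower (28.2%), beside 21.8% and 19.9% of all genes, with a median log2 fold change of 0.11. The list medians were 0.94 for ERK output genes, 0.71 for ligands, 0.49 for upstream stress kinases with GADD45 genes, 0.46 for the other DUSP phosphatases of MAPKs, 0.39 for the other Sprouty and Spred genes, 0.03 for receptors and 0.02 for phosphatases of other families. They were -0.08 for the further inhibitors, -0.19 for RAS, RAF and adaptors, -0.23 for MAP kinases, -0.32 for atypical phosphatases and -0.46 for MAP kinase kinases. The median of the other DUSP phosphatases of MAPKs rested on 4 genes, with 1 called higher and 1 lower. It was -0.15 over the 3 genes tested when at least 10 counts were required in every library. Among the other phosphatases of the same class, Dusp16, which acts on JNK and p38 as Dusp10 does, rose from 12.9 ± 1.77 to 27.4 ± 7.12 CPM, which is a log2 change of 1.09 ± 0.20 (SE, edgeR adjusted p = 0.00418). Dusp8, a JNK phosphatase rich in brain, was lower at -0.37 ± 0.09 (SE, edgeR adjusted p = 0.0141). It was not called with library size only, at -0.11, or with any one sham replicate left out. Dusp9 at 1.17 and Dusp7 at -0.18 were not called. Of 11 atypical phosphatases tested, 1 was higher (Dusp11 at 0.62) and 4 were lower, with Dusp3 at -0.68, Dusp28 at -0.58, Dusp19 at -0.56 and Dusp18 at -0.40. With library size only, 2 of the 11 were higher and 1 lower, and without sham replicate 1, 2 or 3 the lower calls were 2, 2 and 1. Dusp11 and Dusp3 were called in all 18 alternative fits. Among the relatives of the Sprouty genes, Spry1 was higher at 0.49 (SE 0.15), Spred2 was lower at -0.49 (SE 0.11) and Spred3 was not called at 0.39. The call of Spry1 was kept in 13 of 18 alternative fits and was lost without I/R replicate 2 and without sham replicate 1 or 2. With library size only, Spred2 was at -0.24 and was not called (edgeR adjusted p = 0.0610).

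Of 10 further inhibitors of receptor tyrosine kinases and RAS-ERK signalling, 4 were higher and 3 lower. Errfi1, which blocks EGF receptors, rose by 1.10 (SE 0.10), Spsb1 by 0.99 and Lrig1 by 0.69 on the log2 scale. Rasal1, a RAS GTPase-activating protein gene, was lower at -1.41 (SE 0.14), at 50.4 ± 10.4 CPM after I/R against 134 ± 4.97 CPM. Among phosphatases of other families, 2 of 8 were higher and 2 lower. Ptpn7, a tyrosine phosphatase of blood cells, had 39, 22 and 10 counts after I/R against 0, 0 and 1 count in the sham libraries, each under the floor of 3 counts per library, and was at least 6.97-fold higher. Ptprr was lower at -0.74 (SE 0.17), while Ppp2r2a at 0.29 and Ptpn5 at -0.28 kept their calls in only 8 and 6 of 18 alternative fits. With any one of the 6 libraries left out 1 gene of the list was called higher, and with I/R replicate 2 or any one sham replicate left out 1 was called lower. With library size only, Ptpn5 was at -0.02.

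Of 9 MAP kinase genes tested, 4 were lower and 1 higher. Mapk10, the neuronal JNK gene, was at -0.86 (SE 0.13), and Mapk12, a p38 gene, rose by 1.55 (SE 0.16). Of 6 MAP kinase kinase genes, 4 were lower and 1 higher. Map2k1 was at -0.88 and Map2k6 at -0.78, and Map2k3, an activator of p38, rose by 1.62 (SE 0.22). Of 13 RAS, RAF and adaptor genes 3 were higher and 3 lower, with Shc1 at 1.43, Ksr1 at -1.18 and Nras at 0.83. With library size only, the calls were 3 higher and 3 lower for the MAP kinases and 2 and 2 for their kinases, and 4 and 1 for the RAS, RAF and adaptor genes. With any one sham replicate left out 2 MAP kinase kinase genes were called lower, and without sham replicate 2 the RAS, RAF and adaptor genes called lower numbered 1. The list medians of the last group, of the MAP kinases and of the further inhibitors, which were -0.19, -0.23 and -0.08, changed sign with library size only, to 0.07, 0.02 and 0.17. Neuronal markers moved with these genes, at a summed 1775 to 3604 CPM in I/R and 6172 to 6469 CPM in sham with 7 of 7 called lower, and their part was not tested.

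Of 13 ligand genes of receptor tyrosine kinases tested, 8 were higher and 2 lower (0 lower with library size only, and 1 with any one sham replicate left out). Hbegf, a ligand of EGF receptors, rose from 10.5 ± 1.44 to 68.8 ± 16.3 CPM (log2 fold change 2.71, SE 0.19), and Fgf2 from 7.81 ± 1.10 to 28.5 ± 4.68 CPM (log2 fold change 1.87, SE 0.16). Ereg had 35, 13 and 10 counts after I/R against 0 in all sham libraries, at least 5.65-fold higher. Of 11 receptor genes, 4 were higher and 2 lower, with Kdr at 0.93, Egfr at 0.85 and Erbb2 at 0.82. The receptor calls depended on single libraries, in that 1 gene was higher with any one sham replicate left out and 2 without I/R replicate 2, and 4 were lower without I/R replicate 1 and 1 without sham replicate 3. Egfr and Erbb2 lost their calls with any one sham replicate left out, and with library size only 6 receptor genes were higher. Of 13 upstream stress kinase and GADD45 genes, 8 were higher and 2 lower. The stress-induced activators Gadd45g, Gadd45b and Gadd45a rose by 2.90, 2.67 and 2.41 on the log2 scale (SE 0.28, 0.20 and 0.26).

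Of the 16 tested genes of the ERK output list, 10 were higher and 5 lower. The list is mixed, since Elk1 and Elk3 encode transcription factors that ERK phosphorylates, and their RNA is not a readout of ERK activity. The counts and the list median include them. Fos rose by 3.70 (SE 0.33), Ier3 by 2.73 (SE 0.38) and Epha2 by 2.56 (SE 0.29). Epha4 at -1.39, Etv1 at -1.19, Elk1 at -0.80, Egr3 at -0.59 and Etv5 at -0.44 were lower, and Etv4 at -0.08 was not called. Etv5 and Egr3 were not called with library size only, and 3 genes were lower with any one sham replicate left out. Etv4, Etv5 and Dusp6 are often read together as ERK targets, and their log2 fold changes were -0.08, -0.44 and 0.27.

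**Figure D4:**
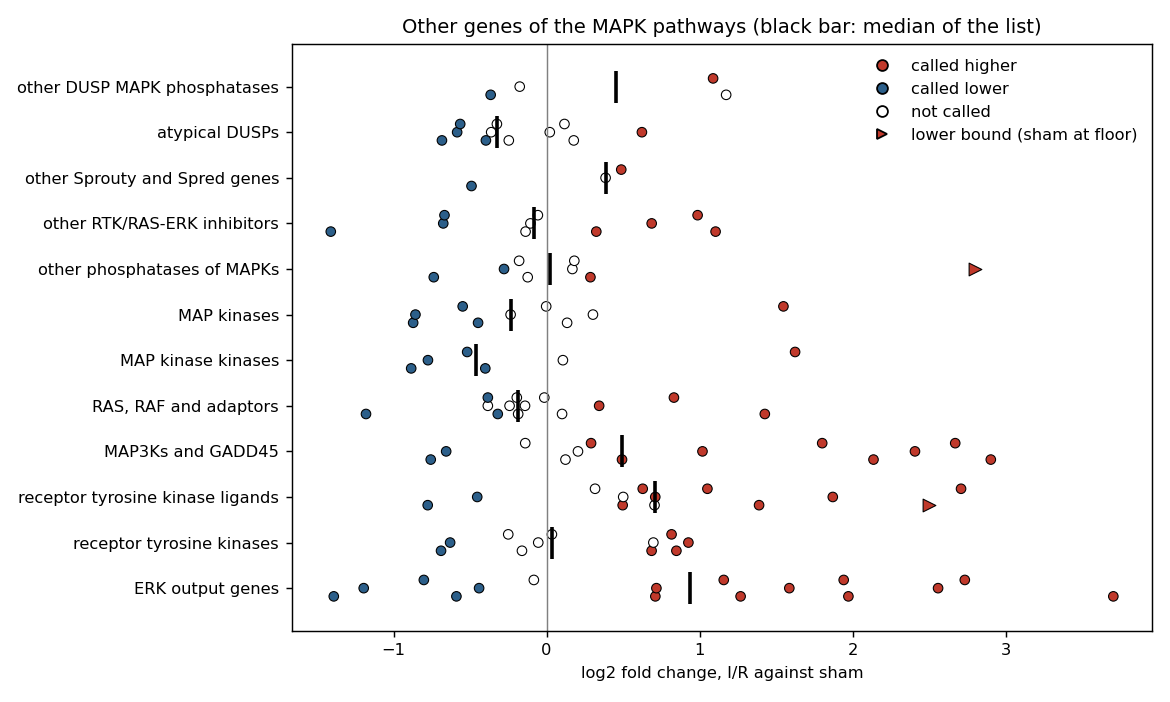
Log2 fold change of I/R against sham for each tested gene of the 12 lists (circles, red where called higher, blue where called lower, white where not called), with the median of each list as a black bar. Triangles are the lower bounds of Ptpn7 and Ereg, whose sham libraries were all at or below 3 counts. The medians run from -0.46 for MAP kinase kinases to 0.94 for ERK output genes.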

How the data were processed

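Hippocampal RNA-seq gene counts of 3 sham and 3 I/R libraries were used, with groups and replicate numbers from the sample titles. The authors aligned reads with TopHat 2 to an Ensembl genome and counted them per gene with HTSeq, and these raw counts were deposited. Identifiers were of the BALB/cJ annotation although the mice were C57BL/6, and the submitters' processing notes also name Bowtie 0.12.2. Whether counting used strand is not given in the sources used here. The deposited FPKM divides counts by a gene length and the library total; that length equalled the table's length column (within 0.001) in 28.1% of 15225 genes. The authors' own comparison columns (log2 fold changes, p-values, adjusted p-values and calls) were not used. 4 split lines were rejoined.

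Counts were tested with edgeR 4.0.16 (R 4.3.3; filterByExpr, TMM scaling, robust quasi-likelihood F-test, no covariates; TMM factors 0.908 to 1.15), with adjustment over 18569 genes. SE is the log2 fold change divided by the square root of F. PCR copies were not told apart, so the floor of 3 counts covers counting error only. The fit was tested on simulated counts with 200 of 18249 genes changed. It recovered 57.9% of log2 changes of 1 and 87.9% of log2 changes of 2, with 0 in the wrong direction. Of its calls 5.77% were unchanged genes. In the data 41.8% of genes were called, so the simulation differs from them in the share of changed genes. Alternatives used DESeq2 1.42.0 and limma 3.58.1. From each list up to 3 called genes with the largest changes were named, and every gene of lists of 4 or fewer; further names (Lrig1, the remaining called genes of the atypical phosphatases, of the phosphatases of other families and of the ERK outputs, and Etv4) were chosen after their values were seen. The values of 1 gene that this rule names are not reported here. The members and lists were chosen with earlier results of these data known. The study's methods name biological replicates, so p-values measure the spread between these pools of hippocampi.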

Additional observations from a re-analysis of the deposited data

How the results depend on the processing

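Over 20 alternatives the number of members called lower stayed at 0 (edgeR, DESeq2 and limma; also 0 at an unadjusted p under 0.05), and the number called higher was 4 to 9, against 7. With a fold change over 2, 4 members, 29 of the listed pathway genes (77 otherwise) and 2760 of all genes (7756 otherwise) were called in either direction, because that rule is stricter. Leaving out 1 library gave 5 to 6 members, 54 to 75 pathway genes and 5330 to 7976 genes. Fewer libraries enter those fits. The log2 fold change of Dusp14 changed sign, to 0.21 with library size only, 0.11 on log2 of FPKM plus 1 or plus 0.1, 0.0072 in the 4 libraries with high choroid plexus levels (a comparison added after seeing the data, with 5 members called), 0.0080 without I/R replicate 3 and 0.26 without I/R replicate 1, with a range of -0.49 to 0.26 over single libraries left out; the cause was not tested. The Dusp5 to Dusp6 ratio ranged from -0.10 to 0.29 over libraries left out. With the choroid plexus list as a covariate, 7 members were called, Dusp5 (edgeR adjusted p of 0.0480) in place of Dusp6. Calls of all genes were 52.3% higher with TMM and 75.7% with library size only. Deviations from the group means had correlations of -0.10, 0.06 and -0.18 between same-numbered I/R and sham libraries. Between differently numbered libraries they were -0.17 to 0.27. With 3 libraries per group these values cannot decide whether equal numbers share a batch. With the replicate number as a block, 6 members were called, without Dusp6 (log2 fold change 0.27, edgeR adjusted p of 0.0895), and the number of pathway genes was 68 and of all genes 6332. Depth limits Dusp2 most, at 25 to 97 counts per library.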
